A study of Mus musculus with 16 samples.

Results

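The 10 genes described here build and load major histocompatibility complex (MHC) class I molecules. They are the heavy chains H2-K1, H2-D1, H2-Q4 and H2-Q7, the light chain B2m, the peptide transporter genes Tap1 and Tap2, the loading chaperone Tapbp and the inducible proteasome subunits Psmb8 and Psmb9. They are 10 of the 24485 gene IDs measured, all 10 were found, and they were chosen by name from values of these same libraries, H2-Q4 among them for the difference between its slopes. Their differences between lines and days are therefore given as descriptions, with a fitted size and standard error (SE) and no p-value. RNA came from immortalized mouse embryonic fibroblasts of 2 lines, sequenced at 6 times of doxycycline treatment in 16 libraries. The exp line is R26M2rtTA/+;TetOcre;Sdhcfl/fl, and the ctl line is R26M2rtTA/+;TetOcre;Sdhcfl/wt. Both therefore carry the rtTA transactivator, the doxycycline-responsive Cre and at least 1 floxed copy of Sdhc, a gene for a membrane subunit of succinate dehydrogenase, and both were given doxycycline at 1 µg/mL in low-glucose medium. Each line has 1 library at day 0, 5, 9, 12 and 20 and 3 libraries at day 16. Each genotype is represented by a single line, so the effect of genotype and that of the line cannot be told apart, and the labels do not say whether either line is a clone or which H2 haplotype it carries. Where a test is given, its p-value measures the spread between these libraries only.

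Class I molecules carry peptides from proteins made inside the cell to its surface, where cytotoxic T cells and natural killer cells read them. The proteasome cuts proteins into peptides, and its inducible subunits replace constitutive ones when cells meet interferon. The TAP transporter, a dimer of the products of Tap1 and Tap2, moves peptides into the endoplasmic reticulum, where tapasin, the product of Tapbp, bridges it to a heavy chain bound to β2-microglobulin. Interferons raise most of these transcripts together in fibroblasts. H2-K1 and H2-D1 encode the classical, highly polymorphic heavy chains, and H2-Q4 and H2-Q7 belong to the Q group of nonclassical, less polymorphic chains.

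Apart from B2m, all of these genes lie in the MHC on chromosome 17. In mm9, H2-K1 spans chr17:34132962-34137278 on the minus strand, H2-D1 chr17:35399675-35404444, H2-Q4 chr17:35516562-35522235 and H2-Q7 chr17:35576100-35580714, all 3 of these on the plus strand. Tapbp spans chr17:34052844-34066235 on the plus strand. Psmb9 (chr17:34318932-34324697, minus strand), Tap1 (chr17:34324498-34334170), Psmb8 (chr17:34334666-34338399) and Tap2 (chr17:34340472-34353266), the last 3 on the plus strand, follow each other directly. The annotated records of Psmb9 and Tap1 overlap on opposite strands, and a strand setting is not given in the sources used here, so reads in that overlap cannot be assigned to either gene. B2m spans chr2:121973422-121978819 on the plus strand. The sequences below are shown because these genes moved together over the libraries. They come from RefSeq on GRCm38.p6, which held 300-base promoter windows for 9 of the 10 genes. For 5 of them, 50 bases upstream of the annotated start are given 5′ to 3′ along the gene. Capitals mark GGGGATTCC, the letters of a κB site, or AANNGAAA (TTTCNNTT on the other strand), the core letters of an interferon-stimulated response element.
H2-K1, chr17:34000418-34000467, minus strand: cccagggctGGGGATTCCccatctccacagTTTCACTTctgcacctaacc
H2-D1, chr17:35262914-35262963, plus strand: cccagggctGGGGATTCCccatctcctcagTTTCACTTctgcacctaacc
H2-Q4, chr17:35379434-35379483, plus strand: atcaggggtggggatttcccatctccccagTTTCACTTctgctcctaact
H2-Q7, chr17:35439012-35439061, plus strand: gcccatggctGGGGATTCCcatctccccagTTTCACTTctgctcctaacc
B2m, chr2:122147520-122147569, plus strand: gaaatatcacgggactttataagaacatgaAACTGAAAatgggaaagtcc

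The stretches of H2-K1 and H2-D1 are identical at 49 of 50 bases, and the other heavy-chain pairs at 38 to 43 of 50 without gaps. On either strand, GGGGATTCC occurs in 0.25% of the 32851 promoter windows and AANNGAAA in 23.9%. Windows that hold both number 24, or 0.0731%, and H2-K1, H2-D1 and H2-Q7 are among the genes they belong to. Among the 9 genes, AANNGAAA is in the windows of the 4 heavy chains and B2m. The window of Psmb8 holds TTCNNNGAA, the letters of a γ-activated site, as do 8.3% of all windows; no other gene of the 9 does. Its 49 bases with those letters in capitals are shown next.
Psmb8, chr17:34198078-34198126, plus strand: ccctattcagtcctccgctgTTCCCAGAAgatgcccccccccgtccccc
In RefSeq the starts of Tap1 and Psmb9, which are read away from each other, leave 225 bases between them, unlike the mm9 records above, which overlap. That stretch is shown next, written along Tap1. Capitals mark GGGCGG, the GC box letters (CCGCCC on this strand), which 35.7% of all windows hold.
Tap1 and Psmb9, chr17:34187331-34187555, plus strand: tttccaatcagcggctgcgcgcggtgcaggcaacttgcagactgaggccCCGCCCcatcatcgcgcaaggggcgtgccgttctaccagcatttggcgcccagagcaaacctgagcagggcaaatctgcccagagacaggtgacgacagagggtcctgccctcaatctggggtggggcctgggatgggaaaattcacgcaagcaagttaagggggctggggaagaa
A match of letters is a description and not a site, and a window without one says only that these letters are not in it.

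Values are FPKM, a read count scaled for gene length and library size, as the authors deposited them. The libraries hold 18121520 to 42486438 recovered reads in genes. Sdhc measured 26.5 to 36.9 FPKM in exp and 47.5 to 50.5 FPKM in ctl at day 16, so on that day the targeted gene was lower in the line labelled Sdhcfl/fl. The day 0 libraries had 87.8 FPKM in exp and 90.5 FPKM in ctl. At days 5, 9, 12 and 20 Sdhc was at 54.4, 43.8, 44.0 and 42.5 FPKM in exp and at 58.6, 47.6, 52.6 and 54.7 FPKM in ctl. It thus fell after day 0 in both lines, and the lines were close at days 5 and 9. Of 10 fibroblast markers, Vim (1371 to 2152 FPKM in exp and 1445 to 1789 FPKM in ctl), Col1a1, Fn1 and S100a4 were high in both lines. Col1a2 was at 373 to 721 FPKM in exp and 80.4 to 103 FPKM in ctl, Thy1 at 0.588 to 9.57 FPKM in exp and 0.512 to 1.02 FPKM in ctl, and Fap at no more than 0.145 FPKM in any library. Leukocytes, which express these genes strongly, were near 0: the 10 leukocyte markers in the files summed to 0.0344 to 0.175 FPKM in exp and 0.103 to 0.176 FPKM in ctl, with Tyrobp, Adgre1, Cd52 and Cd3e at 0 in all libraries. The 4 epithelial markers summed to 2.97 to 50.4 FPKM in exp and 1.30 to 1.93 FPKM in ctl, in exp mostly from Krt18. Krt18 ranged from 2.03 to 41.5 FPKM in exp and from 0.0614 to 0.282 FPKM in ctl. At day 16 in exp it was at 41.5 FPKM in replicate 1 and at 2.27 and 2.03 FPKM in replicates 2 and 3, and at day 20 at 31.9 FPKM. The part of such cells in the values below was not tested. In bulk RNA, a change in the number of expressing cells and a change in RNA per cell cannot be told apart. At day 16, replicates 2 and 3 of each line resembled each other more (r = 0.995 in exp and 0.997 in ctl across genes) than either resembled replicate 1 (r = 0.951 to 0.953 in exp and 0.979 to 0.981 in ctl).

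H2-K1, a classical heavy chain, had the highest difference between the lines of the 10 genes at day 20 on the log2(FPKM + 1) scale, 1.47. In exp it measured 42.0, 44.5, 60.1 and 81.2 FPKM at days 0, 5, 9 and 12, then 91.3, 67.1 and 64.7 FPKM in the 3 day 16 replicates and 110.1 FPKM at day 20. In ctl the same days gave 43.5, 48.2, 45.7 and 46.6 FPKM, then 40.6, 26.3 and 27.8 FPKM, and 39.1 FPKM at day 20. The lines were close at days 0 and 5, and from day 9 every exp library lay above every ctl library. H2-D1, the other classical heavy chain and the more abundant per length, measured 65.9, 77.6, 105.6 and 147 FPKM in exp at days 0 to 12, then 142, 96.1 and 89.8 FPKM at day 16 and 176 FPKM at day 20. In ctl it measured 83.9, 92.5, 81.9 and 89.7 FPKM at days 0 to 12, then 80.1, 52.7 and 58.7 FPKM at day 16 and 77.7 FPKM at day 20. At day 16 the lowest exp replicate of H2-D1 was above the highest ctl replicate, by less than the range among the exp replicates. In both genes replicates 2 and 3 were lower than replicate 1 in each line, by 0.46 in exp and 0.57 in ctl for H2-K1 and by 0.61 in exp and 0.52 in ctl for H2-D1 on the log2(FPKM + 1) scale.

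H2-Q4 and H2-Q7, the Q-group heavy chains, were the genes furthest below ctl at the start. H2-Q4 measured 12.5, 11.3, 23.8 and 35.6 FPKM in exp at days 0, 5, 9 and 12, then 26.4, 27.5 and 24.7 FPKM at day 16 and 42.8 FPKM at day 20. In ctl it measured 27.5, 31.2, 27.1 and 25.5 FPKM at days 0 to 12, then 20.7, 16.2 and 16.6 FPKM at day 16 and 20.1 FPKM at day 20. At day 0 exp was thus at 0.453 of the ctl level and at day 20 at 2.13 times that level. H2-Q7 showed the same order at much lower values, with 0.653, 0.647, 1.09 and 3.30 FPKM in exp at days 0 to 12, 2.12, 2.04 and 1.87 FPKM at day 16 and 4.51 FPKM at day 20. In ctl H2-Q7 had 1.81, 2.18, 1.60 and 1.95 FPKM at days 0 to 12, 1.38, 0.705 and 0.706 FPKM at day 16 and 1.26 FPKM at day 20. These values rest on few reads, 20 at day 0 in exp (95% exact Poisson interval 0.399 to 1.01 FPKM) and 89 at day 0 in ctl (1.45 to 2.23 FPKM), and the intervals cover counting error only. H2-Q7 also had the same whole number of reads as H2-Q9 in all 16 libraries, as H2-Q6 had with H2-Q8, so the members of each pair cannot be told apart here. Of 14824 genes with at least 100 reads over the libraries, 64 shared their reads with another gene in this way, and among the 10 genes H2-Q7 alone did.

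B2m encodes β2-microglobulin, the invariant light chain of all class I molecules, and had the highest level per length and the smallest fold differences of the heavy and light chains at day 20. In exp it measured 312, 384, 445 and 569 FPKM at days 0, 5, 9 and 12, then 409.5, 446 and 421 FPKM at day 16 and 537 FPKM at day 20. In ctl it measured 361, 389.8, 332 and 376 FPKM at days 0 to 12, then 333, 306 and 322 FPKM at day 16 and 346 FPKM at day 20. The highest exp value was at day 12 and not at the end, and the lines differed 1.33-fold at day 16 and 1.55-fold at day 20.

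**Figure D1:**
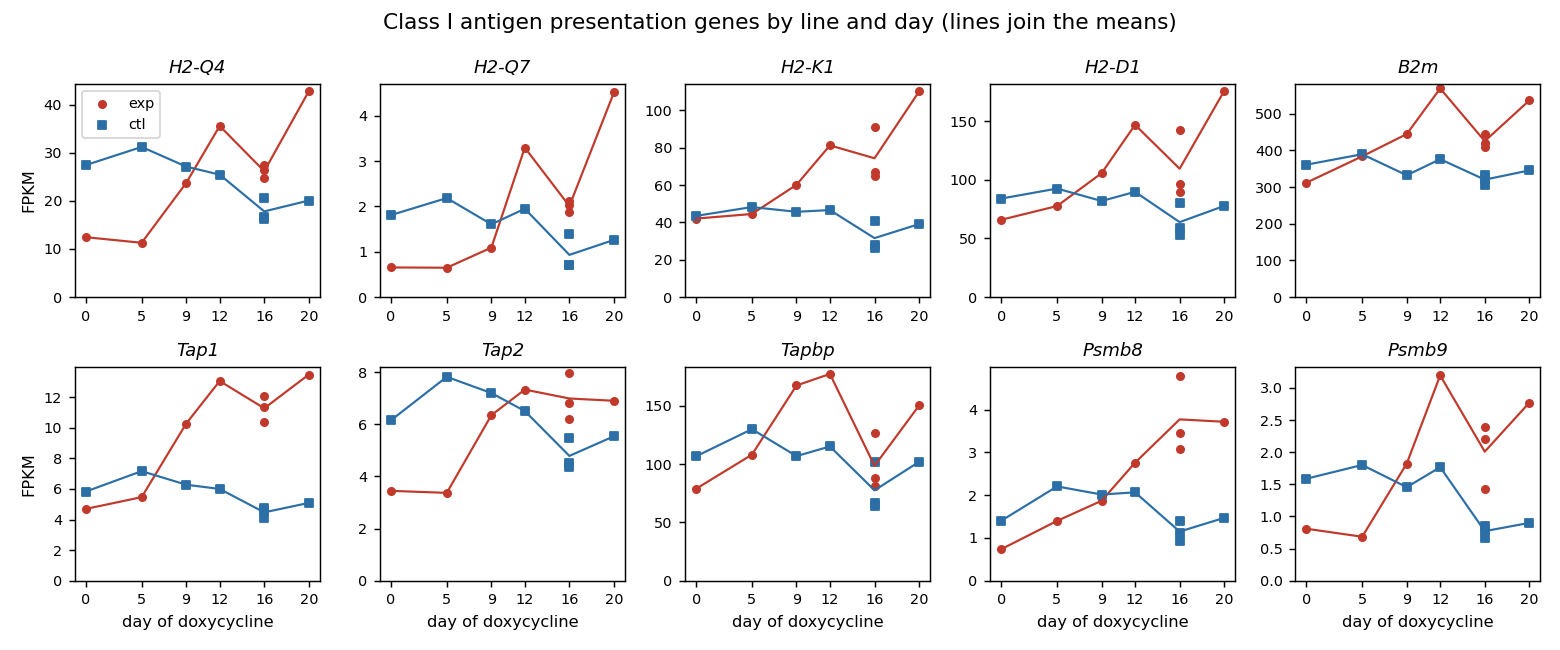
FPKM (vertical axes, each starting at 0) of the 10 genes against the day of doxycycline, with a red circle for each exp library and a blue square for each ctl library; lines join the means. In all 10 panels exp starts below ctl at day 0 and ends above it at day 20, and all exp curves but that of Psmb8 have a lower mean at day 16 than at day 12.

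Tap1 and Tap2 encode the partners of the peptide transporter and did not keep the same ratio. Tap1 measured 4.69, 5.46, 10.3 and 13.05 FPKM in exp at days 0, 5, 9 and 12, then 11.4, 12.1 and 10.4 FPKM at day 16 and 13.5 FPKM at day 20. In ctl Tap1 measured 5.83, 7.16, 6.27 and 5.999 FPKM at days 0 to 12, then 4.75, 4.09 and 4.57 FPKM at day 16 and 5.09 FPKM at day 20. Its day 16 replicates were tight within each line, with means of 11.3 ± 0.851 FPKM (exp) and 4.47 ± 0.344 FPKM (ctl; SD, n = 3 each). Tap2 measured 3.45, 3.37, 6.35 and 7.33 FPKM in exp at days 0 to 12, then 6.19, 7.95 and 6.82 FPKM at day 16 and 6.90 FPKM at day 20. In ctl Tap2 measured 6.16, 7.82, 7.20 and 6.51 FPKM at days 0 to 12, then 5.48, 4.38 and 4.50 FPKM at day 16 and 5.54 FPKM at day 20. At day 20 exp was 2.65-fold above ctl for Tap1 and 1.25-fold above it for Tap2. Within exp, day 20 was 2.87-fold above day 0 for Tap1 and 2.002-fold for Tap2.

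Tapbp encodes tapasin, which holds an empty class I molecule beside the transporter. It measured 78.9, 108, 167 and 177 FPKM in exp at days 0, 5, 9 and 12, then 127, 87.7 and 80.8 FPKM at day 16 and 150.3 FPKM at day 20. In ctl it measured 107, 129.9, 107 and 115 FPKM at days 0 to 12, then 102, 63.7 and 66.9 FPKM at day 16 and 102 FPKM at day 20. Tapbp was the only 1 of the 10 genes whose lines overlapped at day 16. Its replicates 2 and 3 were lower than replicate 1 by 0.59 in exp and 0.64 in ctl on the log2(FPKM + 1) scale, more than the difference between the lines.

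Psmb8 and Psmb9 encode the inducible catalytic subunits that replace the products of Psmb5 and Psmb6. Psmb8 measured 0.738, 1.40, 1.87 and 2.76 FPKM in exp at days 0, 5, 9 and 12, then 3.07, 4.79 and 3.46 FPKM at day 16 and 3.72 FPKM at day 20. In ctl it measured 1.40, 2.205, 2.02 and 2.07 FPKM at days 0 to 12, then 1.41, 1.12 and 0.927 FPKM at day 16 and 1.47 FPKM at day 20. Psmb8 showed the highest fold between the day 16 means, 3.28, and was the only gene of the 10 whose day 16 mean in exp was above its day 12 value. Psmb9 measured 0.809, 0.685, 1.82 and 3.20 FPKM in exp at days 0 to 12, then 2.203, 2.40 and 1.42 FPKM at day 16 and 2.77 FPKM at day 20. In ctl it measured 1.59, 1.80, 1.46 and 1.77 FPKM at days 0 to 12, then 0.853, 0.788 and 0.673 FPKM at day 16 and 0.901 FPKM at day 20. Both rest on few reads, with 18 to 230 per exp library and 46 to 78 per ctl library for Psmb8, and 10 to 76 per exp library and 21 to 42 per ctl library for Psmb9. At day 0 the exact 95% Poisson interval of Psmb9 was 0.431 to 1.38 FPKM in exp and 1.14 to 2.15 FPKM in ctl, which overlap, and at day 20 it was 2.10 to 3.58 FPKM in exp and 0.558 to 1.38 FPKM in ctl, which do not. These intervals cover counting error only. With 1 library per line on each of these days, they do not measure the spread between libraries and are no test of the lines.

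Set against its constitutive counterpart in the same library, the inducible subunit stayed a small part of the transcripts in either line. Psmb8 stood at 0.528% of the Psmb5 FPKM in exp at day 0 and at 2.51%, 3.54% and 2.69% at day 16 and 3.15% at day 20. In ctl it stood at 1.19% at day 0, at 1.09%, 0.873% and 0.692% at day 16 and at 1.19% at day 20. The log2 ratio of Psmb8 to Psmb5, with 1 FPKM added to each, at day 16 averaged -4.78 ± 0.19 in exp and -5.94 ± 0.19 in ctl (SD over 3 replicates a line). For Psmb9 to Psmb6 the log2 ratio averaged -4.42 ± 0.34 in exp and -5.36 ± 0.35 in ctl at day 16. Psmb10, the third inducible subunit and the counterpart of Psmb7, stood apart from both: its log2 ratio averaged -1.95 ± 0.15 in exp and -2.16 ± 0.25 in ctl at day 16, and between days 0 and 20 it moved by 0.09 in exp and -0.13 in ctl. Between the same days the ratio of Psmb8 moved by 1.69 in exp and -0.04 in ctl, and that of Psmb9 by 2.24 in exp and -0.61 in ctl. Psmb6 itself was not constant, at 56.5 FPKM at day 20 and 129.5 FPKM at day 0 in exp, and at 96.3 FPKM at day 20 and 85.6 FPKM at day 0 in ctl, so the Psmb9 ratio moved with its denominator too. In exp the ratios of Psmb8 and Psmb9 thus moved between days 0 and 20 by more than the SD of their day 16 replicates, and that of Psmb10 by less. The Psmb10 ratio was not flat between those days, at -1.93, -2.50, -2.05 and -1.68 in exp at days 0, 5, 9 and 12. An SD over 3 replicates at day 16 does not measure the spread of single libraries at other days.

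**Figure D2:**
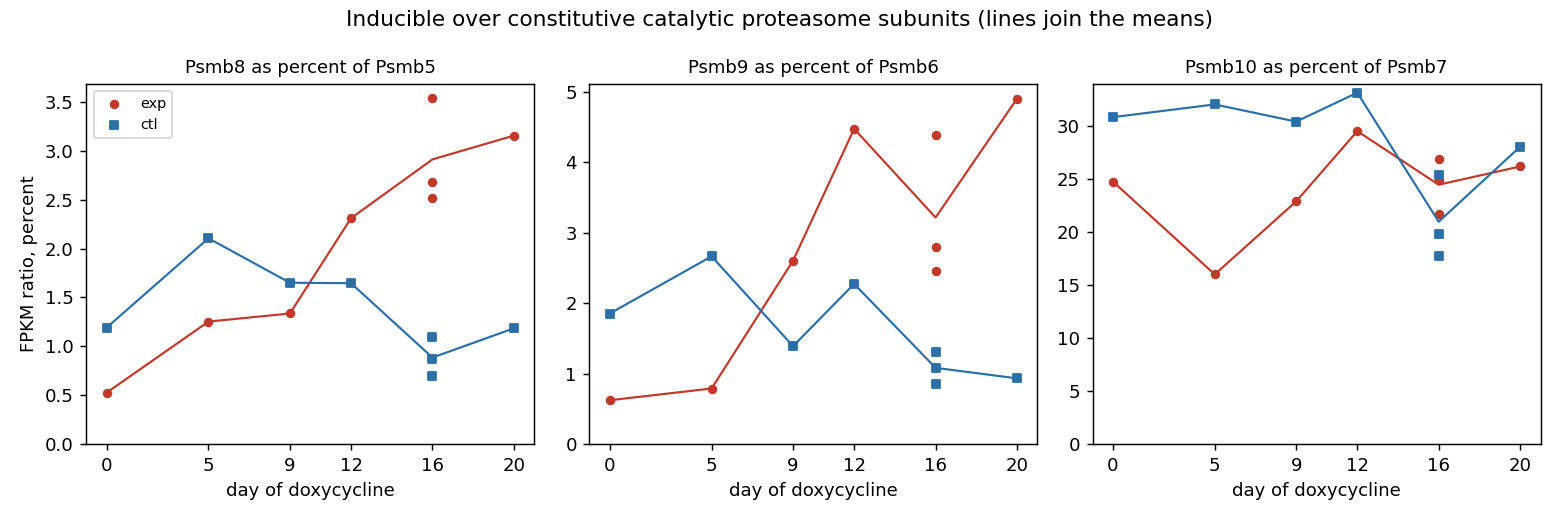
FPKM of Psmb8, Psmb9 and Psmb10 as a percentage of the constitutive counterpart in the same library (vertical axes, starting at 0) against the day of doxycycline; red circles are exp libraries, blue squares ctl libraries, and lines join the means. The exp libraries of Psmb8 lie above those of ctl from day 12, at 2.51% to 3.54% against 0.692% to 1.09% at day 16, while the day 16 values of Psmb10 overlap.

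The order of the lines turned between days 5 and 12 in all 10 genes. At days 0 and 5 exp was below ctl in 10 of 10, with a median difference on the log2(FPKM + 1) scale of -0.45 at day 0 and -0.38 at day 5, against 0.08 and -0.01 over the 12559 genes with a mean of at least 1 FPKM. At day 9 exp was above ctl in 6 of 10, namely H2-K1, H2-D1, B2m, Tap1, Tapbp and Psmb9, and at days 12, 16 and 20 in 10 of 10. The median difference was 0.28 at day 9, 0.60 at day 12, 0.57, 0.84 and 0.58 in the same-numbered pairs of day 16, and 1.02 at day 20. Over all genes the median stayed between -0.02 and 0.08 on every day. Of all 12559 genes, 11.5% were lower in exp at day 0 and higher in exp at day 20. Since these genes were picked with their courses known, nothing is read from 10 of 10 against that share.

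The differences were not of 1 size. At day 0 they ran from -0.05 for H2-K1 to -1.08 for H2-Q4, and at day 20 from 0.27 for Tap2 to 1.47 for H2-K1. On the log2(FPKM + 1) scale H2-Q4 and H2-Q7 covered the longest way, from -1.08 to 1.06 and from -0.76 to 1.29, and B2m the shortest, from -0.21 to 0.63. The order depends on that scale. As plain folds of exp over ctl, H2-Q7 went from 0.361 to 3.58, Psmb9 from 0.510 to 3.08 and Psmb8 from 0.526 to 2.53. All 3, which rest on few reads, moved further in this way than H2-Q4, from 0.453 to 2.13. Each of days 0, 5, 9, 12 and 20 has 1 library per line with no replicate check.

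**Figure D3:**
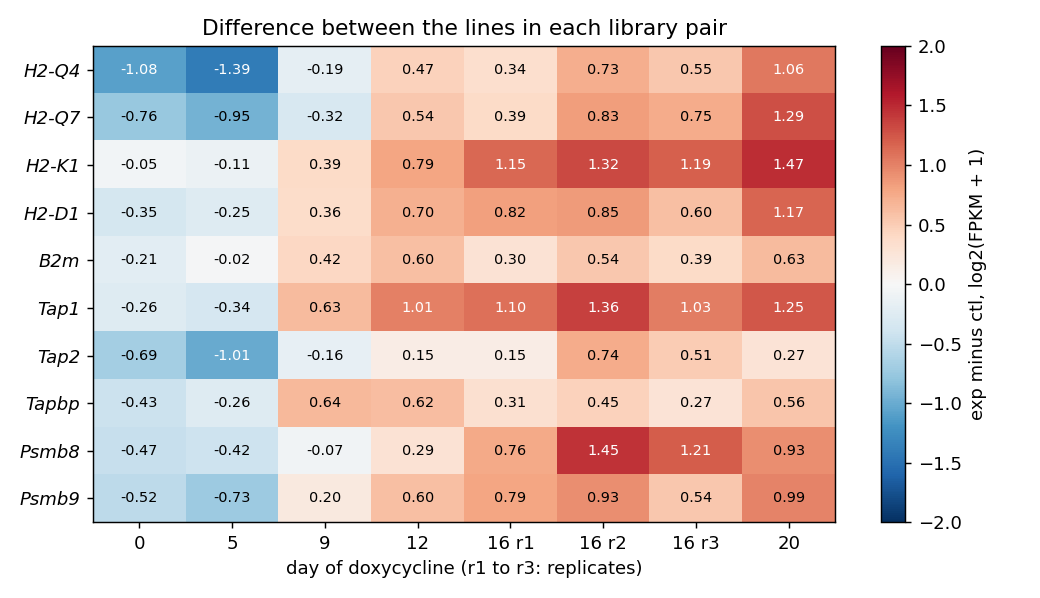
Exp minus ctl on the log2(FPKM + 1) scale for each gene (rows) in each pair of libraries (columns, by day, with the same-numbered replicates of day 16 shown apart); red is higher in exp and blue lower. The 20 cells of days 0 and 5 are all negative, and all 50 cells from day 12 on are positive, from 0.15 for Tap2 at days 12 and 16 to 1.47 for H2-K1 at day 20.

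At day 16, the day with replicates, exp was higher than ctl in all 10 genes, and the 3 exp replicates lay above the 3 ctl replicates in 9 of 10, all but Tapbp. Of the 12533 genes tested, 15.5% showed that order. The fitted differences were 1.22 ± 0.21 for H2-K1, 0.76 ± 0.23 for H2-D1, 0.54 ± 0.11 for H2-Q4 and 0.66 ± 0.16 for H2-Q7 (log2(FPKM + 1) ± SE). For B2m the difference was 0.41 ± 0.07, for Tap1 1.17 ± 0.09, for Tap2 0.46 ± 0.12 and for Tapbp 0.35 ± 0.24. For Psmb8 it was 1.14 ± 0.17 and for Psmb9 0.75 ± 0.16. B2m, H2-K1, H2-Q4, Psmb8 and Tap1 were among the genes that limma called higher in exp, 5 of 10 genes beside 3.1% of all genes tested, and nothing is read from that count because day 16 was among the values that chose the genes. With the replicate number as a block, 8 of 10 were called, H2-D1, Psmb9 and Tapbp being added, beside 4.34% of all genes called higher in that fit. Without exp replicate 2, exp replicate 3, ctl replicate 2 or ctl replicate 3, Tap1 alone of the 10 was called. In both sets of replicates exp was higher in all 10 genes: within the pair of replicates 1 it ran from 0.15 for Tap2 to 1.15 for H2-K1, and within replicates 2 and 3 from 0.36 for Tapbp to 1.33 for Psmb8.

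**Figure D4:**
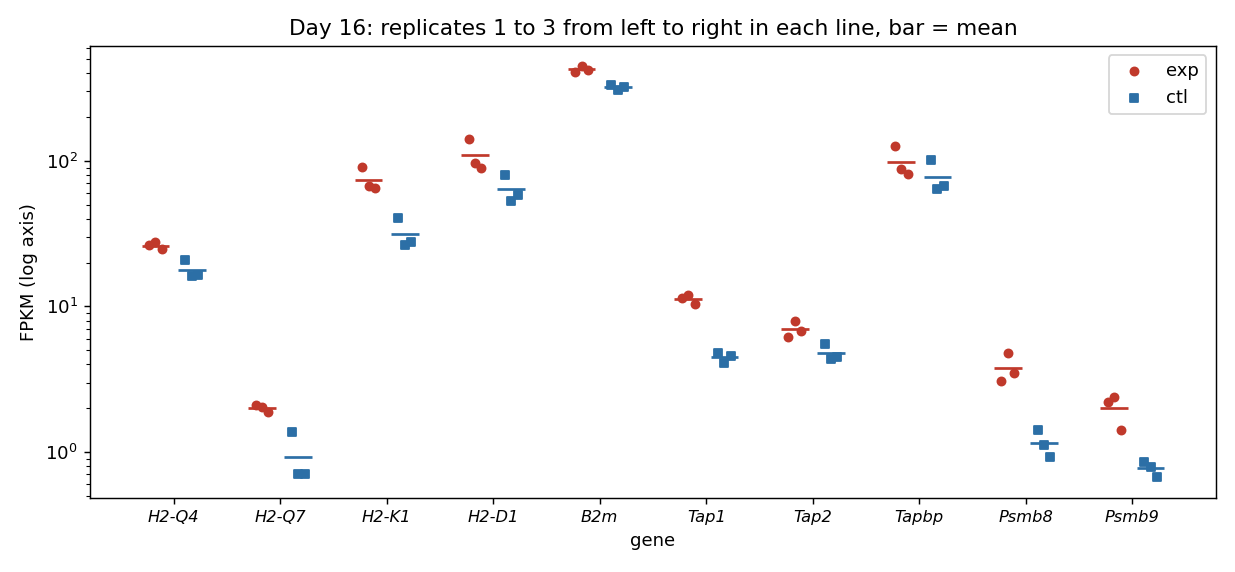
FPKM (log axis) of the 10 genes in the day 16 replicates, with exp as red circles on the left and ctl as blue squares on the right of each gene, replicates 1 to 3 from left to right, and a bar at the mean. The lines are apart in every gene but Tapbp, where exp has 80.8 to 127 FPKM and ctl 63.7 to 102 FPKM.

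Fitted over the whole time course, the slopes were positive in exp and negative, though called for none, in ctl. The slope in exp, per 20 days, was positive for all 10, from 0.36 ± 0.43 for Tapbp and 0.57 ± 0.18 for B2m to 1.62 ± 0.25 for Psmb8 and 1.65 ± 0.31 for H2-Q4 (log2(FPKM + 1) ± SE). H2-K1, H2-Q4, H2-Q7, Psmb8, Tap1 and Tap2 were called by limma as positive in exp, 6 of 10 beside 1.36% of 12559 genes, and nothing is read from that count, since these libraries chose the genes; with day 0 left out none of the 10 was called, and Tapbp then had a slope of -0.25. The slope in ctl was negative for all 10, from -0.20 ± 0.18 for B2m to -0.80 ± 0.31 for H2-Q4, with a median of -0.51. The ctl median was -0.25 without day 16 replicates 2 and 3 and -0.20 without day 16, and the ctl value of Psmb8 was 1.05-fold higher at day 20 than at day 0. No gene of the 12559, or 0%, was called in ctl by limma at the adjusted threshold, and limma voom on the recovered reads called 0 as well. An unadjusted p under 0.05 was found for 203 genes, a smaller share than the 0.05 that such p-values give without any change. The ctl fit was thus conservative, and both lines shared 1 residual spread per gene, with an SE of 0.31 for H2-Q4 in each. The absence of calls therefore does not show that ctl stayed flat. The difference between the slopes, exp minus ctl, was 2.44 ± 0.32 for H2-Q4, 2.26 ± 0.34 for H2-Q7, 1.97 ± 0.36 for Psmb8, 1.85 ± 0.25 for Tap1, 1.81 ± 0.32 for Psmb9 and 1.79 ± 0.34 for H2-K1. It was 1.55 ± 0.36 for H2-D1, 1.502 ± 0.31 for Tap2, 0.91 ± 0.44 for Tapbp and 0.77 ± 0.18 for B2m. For the genes with few reads the size and the order depend on the scale: with a pseudocount of 5 FPKM the slope difference was 0.89 for H2-Q7, 0.84 for Psmb8 and 0.67 for Psmb9, against 2.06 for H2-Q4. On the recovered reads (limma voom) it was 3.89 for H2-Q7, 3.21 for Psmb8 and 3.12 for Psmb9, against 2.55 for H2-Q4. H2-Q4, H2-Q7 and Tap1 were called, 3 of 10 beside 0.183% of all genes, and nothing is read from that count, H2-Q4 having been chosen for this very value. With the replicate number as a block 5 were called, beside 0.239% of all genes. Without exp replicate 2, without ctl replicate 3, without day 0 or without day 16, none of the 10 was called, while all 10 estimates stayed positive in each of these fits. Nothing is read from those signs, since the fits reuse libraries that chose the genes.

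**Figure D5:**
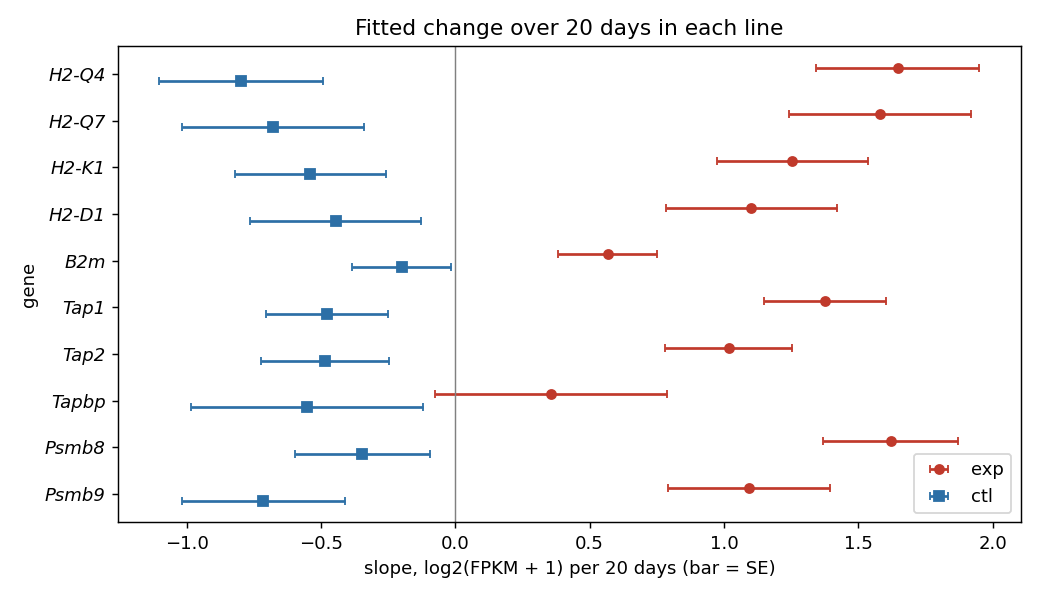
Fitted slope of each gene over 20 days (horizontal axis, log2(FPKM + 1), bar = SE) with exp as red circles above ctl as blue squares. The exp slopes run from 0.36 to 1.65 and the ctl slopes from -0.80 to -0.20; the SE bar of Tapbp in exp crosses 0.

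Other genes of the same pathway were tested in lists. Of 20 further proteasome activator, trimming, loading and transcription factor genes, all tested, 1 was called at day 16 and 0 by the slope difference, beside 3.01% of all genes called lower and 3.1% called higher at day 16, and 0.0239% called lower and 0.183% called higher by the slope difference. Their median difference was 0.00 at day 16 and 0.00 for the slope difference, against -0.01 and -0.06 over all genes. The 1 called was Npepps, a cytosolic aminopeptidase, which was lower in exp, at 23.1 ± 1.12 FPKM (exp) and 30.2 ± 1.08 FPKM (ctl; SD, n = 3 each), a difference of -0.37 ± 0.06 (limma, adjusted p = 0.0267). Npepps lay apart in all libraries, at 20.2 to 24.7 FPKM in exp and 29.3 to 32.0 FPKM in ctl, day 0 included. Its adjusted p ran from 0.00226 to 0.117 over the alternatives (limma) and missed the threshold without exp replicate 2, exp replicate 3 or any single ctl replicate.

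Erap1, which trims peptides in the endoplasmic reticulum, had 3.86 FPKM in exp and 6.90 FPKM in ctl at day 0 and 8.08 FPKM in exp and 7.10 FPKM in ctl at day 20, with a slope difference of 1.03 ± 0.22 that missed the threshold (limma, adjusted p = 0.101). Nlrc5, the transactivator of class I genes, had a slope difference of 1.23 ± 0.36 (limma, adjusted p = 0.248) on values of 0.453 to 2.09 FPKM in exp and 0.726 to 1.15 FPKM in ctl. Uggt1, a glycoprotein quality-control enzyme, had a slope difference of 0.51 ± 0.13 (limma, adjusted p = 0.189), and Rfxank, a subunit of the RFX factor that binds MHC promoters, one of -0.42 ± 0.14 (limma, adjusted p = 0.312). Erap1 and Nlrc5 were called higher in exp at day 16 when exp replicate 1 was left out and within replicates 2 and 3 only. Those fits called 907 of 12464 and 2213 of 12474 genes higher in exp, so nothing is read from these calls. Psmb10, the third ratio above, had a day 16 difference of 0.18 ± 0.12 (limma, adjusted p = 0.438).

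Of 21 other class I and class I-like heavy chains, 19 were in the files and 10 passed the minimum of 1 FPKM. None was called at day 16, and 1, H2-Q9, had a slope difference past the threshold, of 2.27 ± 0.34 (limma, adjusted p = 0.0301), beside 0.183% of all genes; it holds the same reads as H2-Q7 and is no further evidence. It was called in 10 of 23 alternative fits, with a limma adjusted p of 0.0151 to 0.195 over them. The median of these heavy chains was -0.11 at day 16 and 0.21 for the slope difference, against -0.01 and -0.06 over all genes. Of the 10 tested, H2-Q9 included, the slope difference was positive in 9 and negative in 1, and the day 16 difference positive in 4 and negative in 6. H2-M3, which presents formylated peptides, at day 16 had 1.47 ± 0.159 FPKM (exp) and 2.19 ± 0.18 FPKM (ctl; SD, n = 3 each; difference -0.37 ± 0.11, limma, adjusted p = 0.104). H2-M3 lay apart in all libraries, at 1.02 to 1.64 FPKM in exp and 1.84 to 2.69 FPKM in ctl, day 0 included. Mr1, which presents vitamin B metabolites to MAIT cells, was also lower in exp at day 0, at 5.84 FPKM (exp) and 11.3 FPKM (ctl). At day 20 it was at 6.08 FPKM (exp) and 12.1 FPKM (ctl). Its day 16 difference was -0.46 ± 0.16 (limma, adjusted p = 0.168). Hfe, a regulator of iron uptake, had one of 0.34 ± 0.13 (limma, adjusted p = 0.195), and H2-T24 a slope difference of 0.51 ± 0.20 (limma, adjusted p = 0.384). H2-T23, which encodes the nonclassical chain Qa-1, was picked after its values were seen, since it passed the day 16 threshold with the replicate block and within replicates 2 and 3 only. Those fits called 479 of 12533 and 2113 of 12474 genes lower in exp. In exp H2-T23 had 5.83, 7.96, 9.80 and 10.7 FPKM at days 0 to 12, then 11.1, 6.09 and 5.37 FPKM at day 16 and 11.3 FPKM at day 20. In ctl H2-T23 had 16.5, 20.1, 18.2 and 17.7 FPKM at days 0 to 12, then 18.1, 8.06 and 8.76 FPKM at day 16 and 18.01 FPKM at day 20. Exp was below ctl on each other day and, at day 16, within each same-numbered pair, but the lines overlapped at day 16, where exp replicate 1 was above ctl replicates 2 and 3. Replicates 2 and 3 were again below replicate 1 in both lines. H2-T23 had a slope difference of 0.91 ± 0.55 (limma, adjusted p = 0.587). Its day 16 difference was -0.54 ± 0.37 (limma, adjusted p = 0.449), and -0.54 ± 0.08 with the replicate block (limma, adjusted p = 0.0394); over the alternatives the adjusted p ran from 0.0032 to 0.756.

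Among the 14 subunits of the constitutive 20S proteasome, none was called at day 16 or by the slope difference. The slope difference was negative in 13 of 14, with a median of -0.48 against -0.06 over all genes. The exp day 0 library stood apart in the subunits named here: Psma7 was at 85.2 FPKM there and at 34.6 to 43.3 FPKM in the other exp libraries, Psma6 at 101.5 against 51.2 to 71.2 FPKM, and Psmb1 at 135 against 83.7 to 104.7 FPKM. Without day 0 the slope difference was negative in 12 of 14, with a median of -0.28. Psma7 had -1.07 ± 0.25 (limma, adjusted p = 0.137), Psmb1 -0.62 ± 0.14 (limma, adjusted p = 0.133), Psma6 -0.75 ± 0.23 (limma, adjusted p = 0.264) and Psma4 -0.56 ± 0.20 (limma, adjusted p = 0.334). Of 12 class II genes, 11 were in the files and 2 passed the minimum, H2-DMa and H2-DMb1, which load class II molecules; neither was called. H2-DMb1 had a slope difference of 0.78 ± 0.32 (limma, adjusted p = 0.387) and H2-DMa one of 0.39 ± 0.26 (limma, adjusted p = 0.621). The class II transactivator gene Ciita ranged from 0.0199 to 0.0922 FPKM and the class II chain genes H2-Aa and H2-Ab1 reached 0.0333 and 0.0744 FPKM at most.

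Across the 16 libraries the 10 genes varied together. These libraries share 2 lines, 6 days and, for read-sharing genes, reads, so the coefficients are descriptions. Pearson's r between pairs on the log2(FPKM + 1) scale ran from 0.42 for Tapbp with Psmb8 to 0.96 for H2-K1 with H2-D1, with a median of 0.79 over the 45 pairs. Within the 8 exp libraries r ran from 0.13, again for Tapbp with Psmb8, to 0.96 with a median of 0.86, and within the 8 ctl libraries from 0.75 to 0.99 with a median of 0.90. In ctl the mean of day 16 replicates 2 and 3 minus replicate 1 was negative for each of the 10, from -0.09 for B2m to -0.64 for Tapbp. The part of this replicate split in the coefficients was not tested. Psmb9 followed the mean of the 10 most closely (r = 0.96) and Tapbp least (r = 0.76). Each of the 10 is part of that mean, which raises its r, so these values cannot be compared with those of outside genes. Outside the 10, the genes with a mean of at least 1 FPKM most like that mean over the 16 libraries were Igtp (r = 0.95), Cxxc5 (r = 0.94), Gbp3 (r = 0.94), Apol9a (r = 0.93), Ddx58 (r = 0.93), H2-Q9 (r = 0.93), Znfx1 (r = 0.93) and Irgm2 (r = 0.92). H2-Q9 holds the same reads as H2-Q7, so it is in effect part of that mean. Its r is raised in the same way, and its values are no further evidence. Igtp, Gbp3 and Irgm2 encode interferon-inducible GTPases and Ddx58 the RNA sensor RIG-I. At day 16 exp minus ctl on the log2(FPKM + 1) scale was 1.51 for Apol9a, above the range of the 10 genes, 1.11 for Igtp, 1.11 for Gbp3, 1.00 for Irgm2, 0.77 for Ddx58 and 0.66 for H2-Q9, and 0.30 for Znfx1 and 0.29 for Cxxc5, below that range.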

How the data were processed

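RNA was measured by mRNA sequencing (a TruSeq kit, per the labels' protocols) in 16 libraries of 2 lines, grouped by the line and day in the labels. The authors deposited 1 file per library with a gene-level FPKM for each of 24485 gene IDs. Beyond the submitters' processing notes, which name the build mm9 and the tool Bowtie2 2.2.3, how reads were counted, with which annotation and on which strand, is not given in the sources used here. A symbol was found for 24416 IDs. Coordinates are from GENCODE on mm9, 1-based, and promoter windows from RefSeq on GRCm38.p6. The heavy chains resemble each other, so that placement of reads could move counts among them.

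Since FPKM steps by 1 read, whole reads could be recovered, to within 0.02 read, for 18966 genes. Library depth of 18121520 to 42486438 reads limits H2-Q7, Psmb8 and Psmb9 most.

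All tests ran over the whole table with limma 3.58.1 and statmod 1.5.0 (R 4.3.3). Values entered as log2(FPKM + 1), genes averaging under 1 FPKM in the fitted libraries were left out, and the empirical Bayes step used a trend and was robust. Two-sided p-values were adjusted by Benjamini-Hochberg, with a threshold of 0.05. Fold changes on this scale understate those of low genes. The day 16 fit used 6 libraries. The slope difference used all 16, with day as a factor shared by the lines, line, and line by day; slopes within a line came from 1 joint fit. Scripts were tested on simulated data. Alternatives were other pseudocounts, filters and scalings, limma voom on the recovered reads, each replicate or day left out, day 16 averaged and the replicate number as a block. The 10 genes, the gene lists, the alternatives and the named-gene rule were chosen with earlier results of these data known. The rule named the 10 genes, every list gene past the day 16 or slope difference threshold and up to 4 others of each list with the smallest p, and the 8 annotated genes most like the mean z-score of the 10.

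Same-numbered day 16 replicates deviated together from their line means (r = 0.381, 0.272 and 0.333 for numbers 1, 2 and 3). Exp replicate 3 also correlated with ctl replicate 2 (r = 0.398) and exp replicate 2 with ctl replicate 3 (r = 0.209), so these values separate number 1 from numbers 2 and 3 and do not tell 2 from 3. The labels do not say what a number shares. The main fits did not pair replicates, and the number entered as a block only in an alternative fit. Day 16 SEs, calls and adjusted p-values given without the block are therefore unpaired.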

Additional observations from a re-analysis of the deposited data

Results flagged for a closer look

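Of the 12559 genes tested, 26 had changes over time that differed between the lines by the line-by-day term (limma). The 4 of them among the 10 genes and the pathway lists are given here; H2-Q4, H2-Q7 and Tap1 were chosen with these values known, and none of the 10 genes was called without day 0, without day 16, without exp replicate 2 or without ctl replicate 3. H2-Q9 was called in 10 of 23 alternatives. The change over 20 days, exp minus ctl, was 2.44 for H2-Q4, 2.26 for H2-Q7, 2.27 for H2-Q9 and 1.85 for Tap1 on the log2(FPKM + 1) scale. H2-Q7 and H2-Q9 hold identical reads and count as 1 measurement. Groups of 3 replicates are too small for a check of single outlying libraries.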

How the results depend on the processing

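Of the 10 genes, 5 were called higher at day 16, 3 by the slope difference, 6 by the exp slope and 0 by the ctl slope; over all genes, in both directions together, the counts were 765, 26, 622 and 0, and all counts over all genes that follow are of this kind. At day 16 the 10 genes' count was 8 with the replicate number as a block, 10 within replicates 2 and 3 only, and 1 to 6 with 1 replicate left out; over all genes it was 493 with a minimum of 5 FPKM, 4326 within replicates 2 and 3 only, and 197 to 1599 with 1 replicate left out. By the slope difference the 10 genes' count was 6 with quantile normalization, 5 with the replicate block, 0 without day 0, without day 16, without replicates 2 and 3 of day 16 or with that day averaged, and 0 to 4 with 1 replicate left out. Over all genes that count was 49 with quantile normalization, 1 without day 0, 8 without day 5, 14 without day 9, 12 without day 12, 0 without day 16 or with it averaged, 2 without replicates 2 and 3 of day 16, and 2 to 35 with 1 replicate left out. By the exp slope the 10 genes' count was 0 without day 0, and over all genes it was 9 without day 0, 1381 without day 5, 371 without day 12, 72 without day 16, 102 with day 16 averaged, and 249 to 466 with 1 replicate left out. By the ctl slope it was 1 over all genes without replicates 2 and 3 of day 16 and 1 with that day averaged, and 0 to 2 with 1 replicate left out. Median-of-ratios rescaling turned the exp slope calls over all genes from 171 up and 451 down to 263 up and 157 down and moved the median slope of all genes from -0.09 to 0.02, while 7 of the 10 genes were called up. At day 16 the replicate block added H2-T23 to the list genes called and changed no other list gene's call. By the exp slope the block called 8 of the 10 genes. Within replicates 2 and 3 only, the day 16 calls were 6 of 20 loading genes, 7 of 9 other heavy chains, 1 of 14 proteasome subunits and 1 of 2 class II genes. That fit called 4326 of 12474 genes, so nothing is read from these counts or from the 10 genes called in it. Among the 10 genes, all 157 day 16 differences and all 237 slope differences under the alternatives were positive, all 227 ctl slopes negative, and 226 of 227 exp slopes positive, the exception being Tapbp at -0.25 without day 0. These alternatives refit the same libraries, whose values were known when the genes were chosen, so nothing is read from the shared signs. The sizes of genes with few reads moved with the scale: from a pseudocount of 5 to limma voom the slope difference of H2-Q7 ran from 0.89 to 3.89, and the day 16 difference from 0.24 to 1.19 for H2-Q7, 0.51 to 1.72 for Psmb8 and 0.28 to 1.32 for Psmb9. The causes of these changes were not tested. Depth limits H2-Q7, Psmb8 and Psmb9 most, with as few as 18, 18 and 10 reads in a library, and days other than 16 have 1 library per line.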
